A study of Mus musculus with 6 samples.

Results

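The genes described here encode the core of the adherens junction and of the desmosome in intestinal epithelium. The 10 genes were chosen by name, for their place in the junctions and not by a cut on their measured values, although earlier results of these data were known: Cdh1, Ctnnb1, Ctnna1 and Ctnnd1 for the adherens junction, Jup for both junctions, and Dsg2, Dsc2, Dsp, Pkp2 and Pkp3 for the desmosome. All 10 had a row among the 25067 rows of the series, and all 10 were among the 13210 rows with enough reads to be tested (mean of 10 or more). RNA was sequenced from mouse colonic organoids of the genotype Prkcif/fPrkczf/f;Villin-CreERT2 on the C57BL/6 strain, from animals 8 weeks old, after 3 days with vehicle (ethanol) or with 4-OH-Tamoxifen (4-OHT), in 3 libraries per group. Prkci and Prkcz encode the atypical protein kinases C (aPKC) PKCλ/ι and PKCζ, and 4-OHT activates a Cre recombinase that the Villin promoter drives in intestinal epithelium. The vehicle libraries are described as wild type in the labels, but they carry the same floxed alleles and the same inducible Cre. Since no library combined 4-OHT with intact alleles or with no Cre, loss of the kinases, Cre activity and 4-OHT itself cannot be told apart, and whether the 3 libraries of a group came from separate animals or cultures is not given, so that p-values measure the spread between these libraries only.

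In an adherens junction, E-cadherin molecules of neighbouring cells bind each other, and their cytoplasmic tails hold catenins that connect them to the actin cytoskeleton. In a desmosome, desmogleins and desmocollins take the place of E-cadherin, and plakoglobin, plakophilins and desmoplakin connect them to intermediate filaments, which in simple epithelium are made of keratins. β-catenin has a second role as the effector of Wnt signalling, and aPKC is known as part of the polarity complexes that act at the same cell borders.

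Transcripts of the cadherin–catenin complex were more abundant after 4-OHT, whereas among the 5 core genes found only in the desmosome, Pkp3 rose and Dsg2, Dsc2, Dsp and Pkp2 did not pass the test. Of the 10 genes, 6 rose, 0 fell and 4 did not pass the test (limma, adjusted p under 0.05). Ctnnb1, which encodes β-catenin, rose 1.48-fold, and Cdh1, Ctnna1, Jup and Pkp3 rose between 1.25-fold and 1.31-fold. Ctnnd1 rose 1.12-fold, a difference that depended on single libraries. In the same comparison 22.7% of all tested rows were higher and 21.0% were lower, so a call by itself does not set these genes apart. The genes are abundant, and among the 4434 rows whose mean reached 1000 normalized counts the shares were 36.1% higher and 23.3% lower. The median log2 fold change was 0.24 over the 10 genes, against -0.01 over all tested rows and 0.04 over the abundant rows. All 3 4-OHT values lay above all 3 vehicle values for 6 of the 10 genes, as they did for 26.8% of all tested rows. In these bulk samples, a change in the share of a cell type and a change in the RNA of each cell cannot be told apart.

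**Figure D1:**
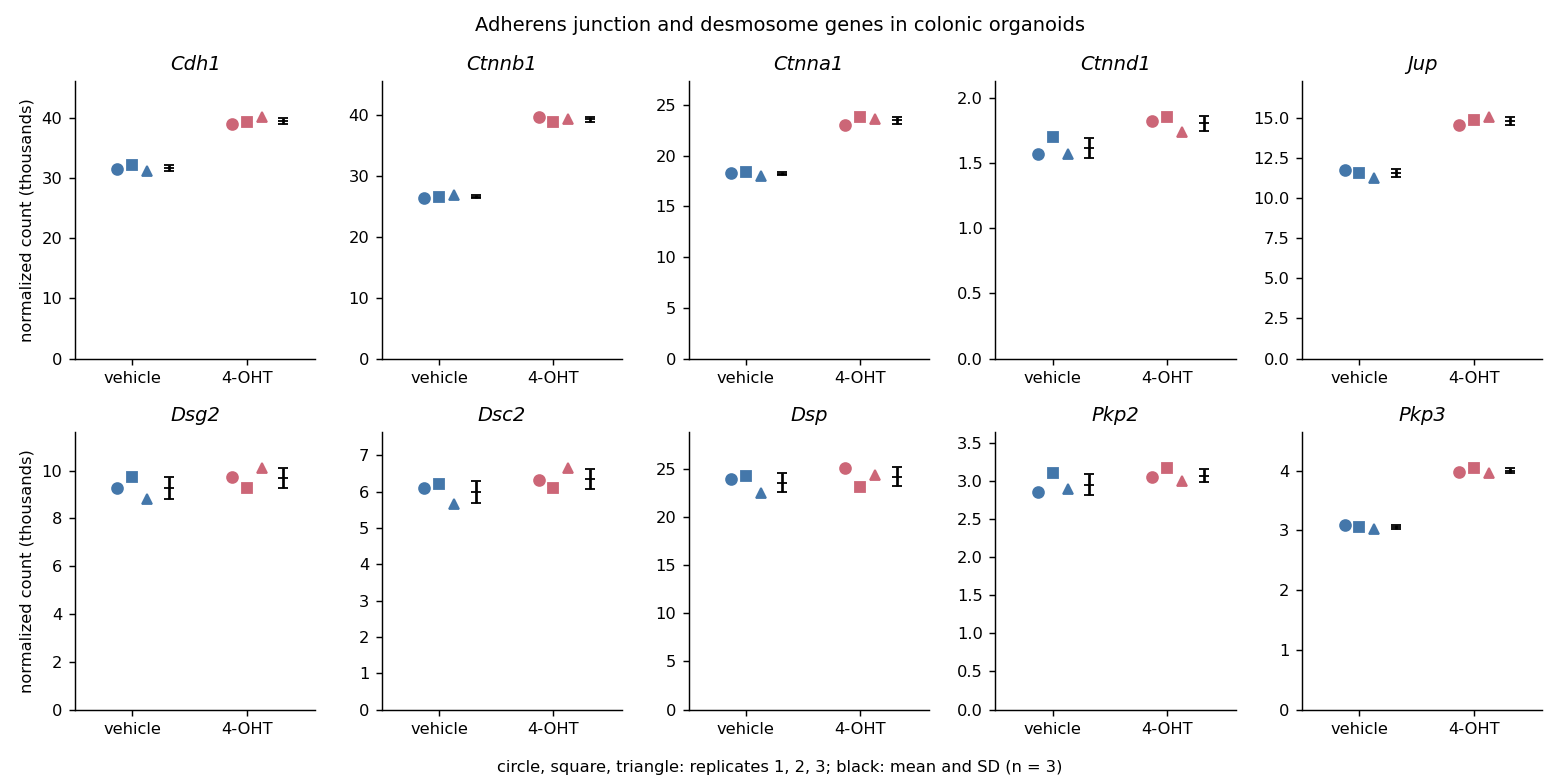
Normalized count (axis in units of 1000) of each of the 10 junction genes in the 3 vehicle and 3 4-OHT libraries, with circles, squares and triangles for replicates 1, 2 and 3 and black bars for the mean and SD. The groups do not overlap for Cdh1, Ctnnb1, Ctnna1, Ctnnd1, Jup and Pkp3, and they overlap for Dsg2, Dsc2, Dsp and Pkp2.

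Promoter sequence from RefSeq (GRCm38.p6) was matched for 4 of the 10 genes, Ctnnb1, Ctnnd1, Jup and Dsp. The sequences upstream of the start are shown for Jup and Ctnnd1, which rose, and for Dsp, which did not pass the test. The call of Ctnnd1 depended on single libraries. Ctnnb1, which rose most of the 10 genes, is not shown, because too little of its windows lay upstream of the annotated gene. The sequences shown are written 5′ to 3′ on the strand of the gene, at chr11:100397840-100398040 (minus strand) for Jup, chr2:84658978-84659227 (minus strand) for Ctnnd1 and chr13:38151044-38151293 (plus strand) for Dsp. Capitals mark the letters CCAAT and GGGCGG (the GC box) on either strand.
Jup: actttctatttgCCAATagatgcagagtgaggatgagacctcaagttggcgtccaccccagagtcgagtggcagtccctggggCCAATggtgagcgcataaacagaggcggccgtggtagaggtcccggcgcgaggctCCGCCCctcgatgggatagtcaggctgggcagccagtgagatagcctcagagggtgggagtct
Ctnnd1: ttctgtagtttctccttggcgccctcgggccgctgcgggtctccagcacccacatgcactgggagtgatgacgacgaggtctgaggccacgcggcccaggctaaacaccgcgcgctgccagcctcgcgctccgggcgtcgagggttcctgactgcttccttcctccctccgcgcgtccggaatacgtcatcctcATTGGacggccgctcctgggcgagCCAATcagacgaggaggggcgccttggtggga
Dsp: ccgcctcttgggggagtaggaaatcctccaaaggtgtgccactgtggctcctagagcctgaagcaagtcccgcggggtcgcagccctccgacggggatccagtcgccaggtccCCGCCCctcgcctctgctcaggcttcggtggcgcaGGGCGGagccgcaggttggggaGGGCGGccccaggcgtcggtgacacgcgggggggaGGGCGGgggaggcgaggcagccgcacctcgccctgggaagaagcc
The stretch of Jup held 2 CCAAT matches and 1 GC box, that of Ctnnd1 held 2 CCAAT matches and 0 GC boxes, and that of Dsp held 0 CCAAT matches and 4 GC boxes, with no overlap between matches. Over the 32851 promoter windows searched, 37.4% held CCAAT and 35.7% held the GC box. These windows run past the printed stretches, by 99 bases for Jup and by 50 for Ctnnd1 and Dsp. In its whole window Jup held 2 GC boxes. The windows of Ctnnb1, at chr9:120933150-120933449 and chr9:120933328-120933627, held 3 GC boxes each, with 2 and 0 CCAAT matches. The motif counts of genes that rose and of Dsp were not compared by a test. The letters CAGGTG, the E-box that the cadherin repressors Snai1 and Zeb1 bind, were searched on both strands as well. They occurred in 20.2% of all windows, in 0 of the windows of Jup, Ctnnd1 and Ctnnb1, and 1 time in the window of Dsp. That 1 match lies in the part of the Dsp window that is not printed. These matches describe letters and not bound sites.

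The targeted transcripts were checked first. Prkcz fell from 912 ± 37.9 to 281 ± 13.6 normalized counts (SD, n = 3 per group; log2 fold change -1.70, limma adjusted p = 3.17e-12). Prkci fell from 3520 ± 86.9 to 3021 ± 132 (log2 fold change -0.22, limma adjusted p = 8.13e-04). Both were lower in all 3 4-OHT libraries than in any vehicle library, and a count over a whole gene does not show whether the transcripts that remain still carry the deleted part. A normalized count is the number of reads on a gene divided by a size factor of its library. The libraries held 15804709 to 26957612 reads on genes, and each of the 10 genes had between 1297 and 45421 reads in a library. Counting error was small beside the differences of Cdh1, Ctnnb1, Ctnna1, Jup and Pkp3. In the library with fewest reads it was 2.78% for Ctnnd1, beside a change of 11.8% in the mean, and 2.04% for Pkp2, beside 4.04%.

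Cdh1 encodes E-cadherin, the adhesive receptor of the adherens junction. It had 31563, 32220 and 31218 normalized counts in vehicle libraries 1, 2 and 3, and 38992, 39382 and 40097 after 4-OHT. The lowest 4-OHT library was well above the highest vehicle library, and the libraries of a group lay close together. The mean rose from 31667 ± 509 to 39490 ± 560 (SD, n = 3 per group), a log2 fold change of 0.32 (SE 0.04) and a fold of 1.25 (95% interval 1.17 to 1.32; limma adjusted p = 3.70e-06). With quantile normalization, which forces all libraries to the same distribution of values, the log2 fold change was 0.15 (limma adjusted p = 0.00252).

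Ctnnb1 encodes β-catenin, which binds the tail of E-cadherin and also acts in the nucleus after a Wnt signal. Its vehicle values were 26322, 26602 and 26896 normalized counts, and its 4-OHT values were 39676, 38914 and 39367. This was the clearest separation among the 10 genes, with a gap between the groups many times wider than the spread inside either of them. The mean rose from 26607 ± 287 to 39319 ± 383, a log2 fold change of 0.56 (SE 0.04) and a fold of 1.48 (1.39 to 1.57; limma adjusted p = 1.85e-09). Ctnnb1 was the 1 gene of the 10 that was called with a log2 fold change over 0.5, as were 6.68% of all tested rows. In the GENCODE annotation of GRCm38, 15.1% of the exon bases of Ctnnb1 overlap another gene, mainly Ulk4 on the opposite strand, and whether the counting used strand is not given in the sources used here.

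Ctnna1 encodes α-catenin, which connects β-catenin to actin. It was measured at 18279, 18377 and 18019 normalized counts in the vehicle libraries and at 23034, 23775 and 23558 in the 4-OHT libraries. No library of one group came near the other group. The mean rose from 18225 ± 185 to 23456 ± 381, with a log2 fold change of 0.36 (SE 0.04) and a fold of 1.29 (1.21 to 1.37; limma adjusted p = 4.78e-07). With quantile normalization the log2 fold change was 0.23.

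Ctnnd1 encodes p120-catenin, which binds the part of the E-cadherin tail next to the membrane and slows removal of the receptor from the cell surface. Its values were 1570.2, 1698 and 1570.2 normalized counts with vehicle and 1821, 1849 and 1737 with 4-OHT. The groups did not overlap, but vehicle replicate 2 was closer to 4-OHT replicate 3 than to the other vehicle libraries. The mean rose from 1613 ± 73.9 to 1803 ± 58.4, a log2 fold change of 0.16 (SE 0.05) and a fold of 1.12 (limma adjusted p = 0.0194). Without vehicle replicate 1, without vehicle replicate 3 or without 4-OHT replicate 2 the log2 fold change was 0.14 each time, and the limma adjusted p-values were 0.0826, 0.0628 and 0.0598. With quantile normalization it was 0.11 (limma adjusted p = 0.0977). Ctnnd1 shares 61.2% of its exon bases with a second annotated gene on the same strand, Gm28635, so that reads may have been divided between the 2 genes or left out, and its level is uncertain.

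Jup encodes plakoglobin (γ-catenin), a relative of β-catenin that sits in both junctions. Vehicle libraries held 11789.9, 11594 and 11299.9 normalized counts of Jup, and 4-OHT libraries held 14563, 14894 and 15072. Each 4-OHT library was above each vehicle library. The mean rose from 11561 ± 247 to 14843 ± 258, with a log2 fold change of 0.36 (SE 0.04) and a fold of 1.28 (1.21 to 1.36; limma adjusted p = 6.21e-07). The estimate was smaller than that of Ctnnb1, and the ratio of the pair within each library is given further on.

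The desmosomal cadherins did not pass the test. Dsg2, the desmoglein of simple epithelia, had 9278, 9736 and 8806 normalized counts with vehicle and 9724, 9269.8 and 10102 with 4-OHT. Dsc2, the matching desmocollin, had 6095, 6223 and 5655 with vehicle and 6319.6, 6089.7 and 6646 with 4-OHT. In both genes the libraries of the 2 groups were interleaved, with vehicle replicate 3 lowest and 4-OHT replicate 3 highest. The fold was 1.05 for Dsg2 (0.977 to 1.12; limma adjusted p = 0.282) and 1.06 for Dsc2 (0.989 to 1.14; limma adjusted p = 0.164). The 95% intervals therefore admit rises of up to 1.12-fold and 1.14-fold, and a failure to pass does not show that the levels were equal.

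Dsp encodes desmoplakin, the protein that ties the desmosome to keratin filaments. It had 24014, 24293 and 22474 normalized counts with vehicle and 25088, 23119 and 24382 with 4-OHT. The highest and the lowest library belonged to different groups, but 4-OHT replicate 2 lay below 2 of the 3 vehicle libraries. The means were 23594 ± 980 and 24196 ± 998, a fold of 1.03 (0.960 to 1.10; limma adjusted p = 0.555). The sign of this small difference changed with quantile normalization, where the log2 fold change of Dsp was -0.08 and that of Dsg2 was -0.04, neither passing the test.

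The plakophilins, which bind desmoplakin and gather desmosomal proteins at the plaque, gave different calls. Pkp2 had 2858, 3108 and 2896 normalized counts with vehicle and 3048, 3169 and 3003 with 4-OHT. Its groups overlapped, and the fold was 1.04 (0.970 to 1.12; limma adjusted p = 0.357). Pkp3 had 3093, 3053 and 3028 with vehicle and 3985, 4040.5 and 3963 with 4-OHT. Its 2 groups were tight and far apart, and the mean rose from 3058 ± 32.8 to 3996 ± 40.1, a log2 fold change of 0.39 (SE 0.04) and a fold of 1.31 (1.23 to 1.39; limma adjusted p = 5.58e-07). Pkp3 was thus the 1 gene of the 5 found only in the desmosome that passed the test.

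**Figure D2:**
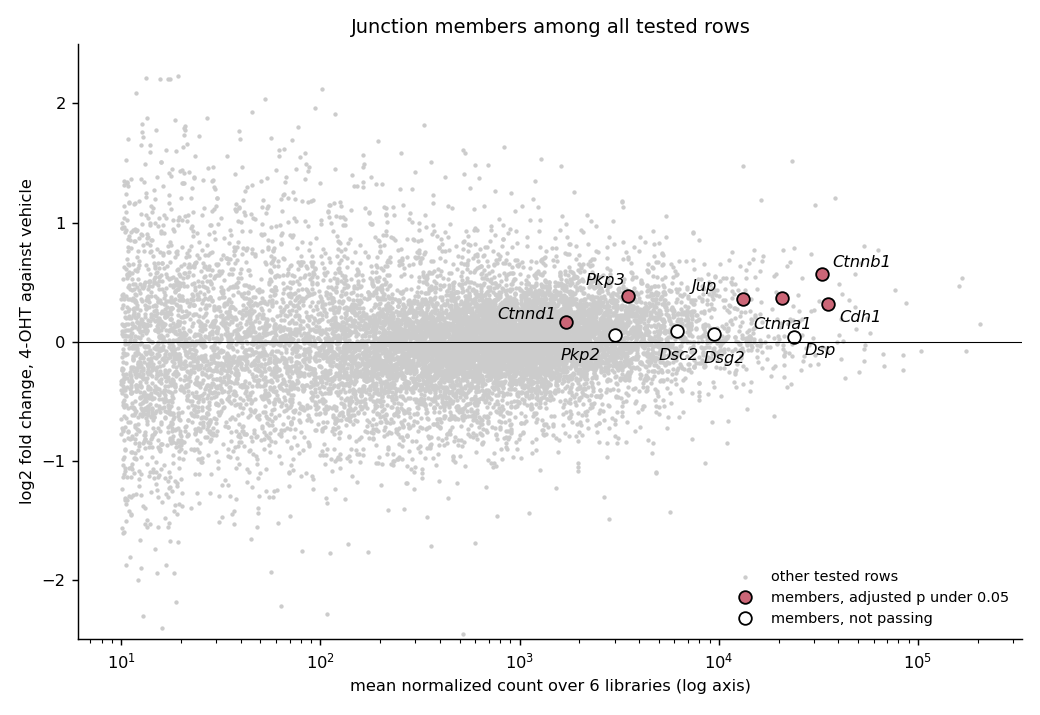
Log2 fold change of 4-OHT against vehicle (vertical axis) against the mean normalized count over the 6 libraries (horizontal log axis) for the tested rows, with the 10 junction genes named. Filled circles passed the test and open circles did not, and 22 rows beyond a log2 fold change of 2.5 in either direction are not drawn. The called junction genes lie between 0.16 and 0.56, at or inside the range that many other rows of the same abundance cover.

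Summed over its 4 genes, the adherens junction had 77703 to 78897 normalized counts in vehicle libraries and 103520.0 to 104760.0 in 4-OHT libraries. The sum of the 5 genes found only in the desmosome ranged from 42858 to 46413 with vehicle and from 45688 to 48164 with 4-OHT. The first pair of ranges was far apart and the second overlapped. Dsp made up the largest part of the second sum, which therefore says little about Pkp3. The contrast holds for the core genes only. The further desmosomal genes described below summed to 13869 to 14357 with vehicle and 16360 to 16595 with 4-OHT. The further adherens junction genes summed to 51607 to 55667 and 61821 to 64948, so neither of these lists overlapped. The coefficient of variation among the 3 libraries of a group was between 0.975% and 5.01%. The 4 genes that did not pass had some of the larger spreads, between 2.79% and 5.01%, whereas Cdh1, Ctnnb1, Ctnna1, Jup and Pkp3 stayed between 0.975% and 2.13%.

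To compare levels between genes, the normalized count was divided by the length of the longest coding transcript. Per kilobase, Ctnnb1 was highest in vehicle libraries with 7344 ± 79.3 normalized counts (SD, n = 3), followed by Cdh1 with 7148 ± 115, and the 3 libraries of these neighbours overlapped. Ctnna1 with 4882, Jup with 3607 and Dsp with 2460 normalized counts per kilobase came next, each below the one before by more than their SDs. The desmosomal cadherins were lower still, at 1608 for Dsg2 and 1294 for Dsc2. Pkp3 with 1048 ± 11.2 and Pkp2 with 1012 ± 46.2 did not differ beyond their spread in vehicle libraries, but after 4-OHT Pkp3 had 1369 ± 13.7 and Pkp2 had 1053 ± 29.4 per kilobase. Ctnnd1 was lowest, at 253.5 in vehicle libraries and 283 after 4-OHT, with the doubt raised above about shared exons. The order was the same in both groups, and with the length of all annotated exons in place of the longest transcript the places of Cdh1 and Ctnnb1, of Jup and Dsp and of Dsg2 and Dsc2 were exchanged.

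Ratios between genes within a library do not depend on the size factors. Of 12 ratios compared by a two-sided exact permutation test, 8 were set together with the gene lists and 4 were added after the values had been seen. With 3 libraries against 3 the test cannot give a p-value under 0.1 (0.133 after Benjamini-Hochberg adjustment over the 12), so that no ratio could pass a threshold of 0.05. The ratio Ctnnb1/Cdh1 was 0.834, 0.826 and 0.862 in vehicle libraries and 1.02, 0.988 and 0.982 in 4-OHT libraries, higher in 3 of 3 (exact permutation p = 0.1). Every 4-OHT library thus held more β-catenin transcript for each transcript of its cadherin partner. The ratio Jup/Ctnnb1 was 0.448, 0.436 and 0.420 with vehicle and 0.367, 0.383 and 0.383 with 4-OHT, lower in 3 of 3 (exact permutation p = 0.1). The plakoglobin share relative to β-catenin was therefore smaller in every 4-OHT library, although both transcripts rose.

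The ratio Ctnna1/Cdh1 differed little, with means of 0.576 ± 0.0046 and 0.594 ± 0.00856, but the 3 values of each group did not overlap (exact permutation p = 0.1). The ratio Ctnnd1/Cdh1 was lower after 4-OHT, 0.0457 against 0.0509, again with no overlap (exact permutation p = 0.1). Among desmosomal pairs, Pkp3/Pkp2 went from 1.04 ± 0.0505 to 1.30 ± 0.023 (exact permutation p = 0.1), while Dsg2/Dsc2 overlapped with 1.55 and 1.53 (exact permutation p = 0.2). Across the 2 junctions, Dsp/Cdh1 was 0.745 ± 0.0219 with vehicle and 0.613 ± 0.0285 with 4-OHT, and Dsg2/Cdh1 was 0.293 ± 0.0101 and 0.246 ± 0.00891. Both ratios of a desmosomal gene to Cdh1 were lower in all 3 4-OHT libraries than in any vehicle library (exact permutation p = 0.1 for each).

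Several general markers of the epithelium also moved, although not all in one direction. Of the 7, 5 rose (Epcam, Vil1, Krt8, Krt18 and Krt19), Cdx2 fell (log2 fold change -0.26, limma adjusted p = 6.88e-05) and Cdh17 did not pass (0.10, limma adjusted p = 0.0785). Among all tested rows, 22.7% were higher and 21.0% were lower. Each of these markers had a mean of at least 1000, and among such rows 36.1% were higher and 23.3% were lower. Epcam, a general epithelial adhesion protein, rose from 27295 ± 1144 to 32881 ± 2147 normalized counts (log2 fold change 0.27, limma adjusted p = 2.18e-04), and Vil1, which encodes villin, rose by 0.24 on the log2 scale (limma adjusted p = 7.36e-05). Relative to Epcam in the same library, Cdh1 was 1.144, 1.14 and 1.199 with vehicle and 1.279, 1.136 and 1.197 with 4-OHT, so that the groups overlapped (exact permutation p = 0.7). Ctnnb1/Epcam stayed apart, with means of 0.976 and 1.20 (exact permutation p = 0.1). Jup/Epcam overlapped with means of 0.424 and 0.452 (exact permutation p = 0.2), and Dsp/Epcam was lower after 4-OHT, 0.739 against 0.864 (exact permutation p = 0.1). Against Epcam, the groups of Cdh1 and Jup thus overlapped and those of Ctnnb1 did not. No other epithelial marker was used as a reference. Krt8 and Krt18 rose by 0.54 and 0.56 on the log2 scale, close to the 0.56 of Ctnnb1. Whether Ctnnb1 stands apart relative to those keratins was not tested. For the called genes Ctnna1, Ctnnd1 and Pkp3, a ratio to Epcam was not tested. Their log2 fold changes were 0.36, 0.16 and 0.39, beside 0.27 for Epcam, so that Ctnnd1 rose less than Epcam. The 7 epithelial markers together ranged from 367860.0 to 379140.0 normalized counts with vehicle and from 495940.0 to 540260.0 with 4-OHT, most of it Krt8 and Krt19, and their part in the junction results was not tested beyond these ratios.

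**Figure D3:**
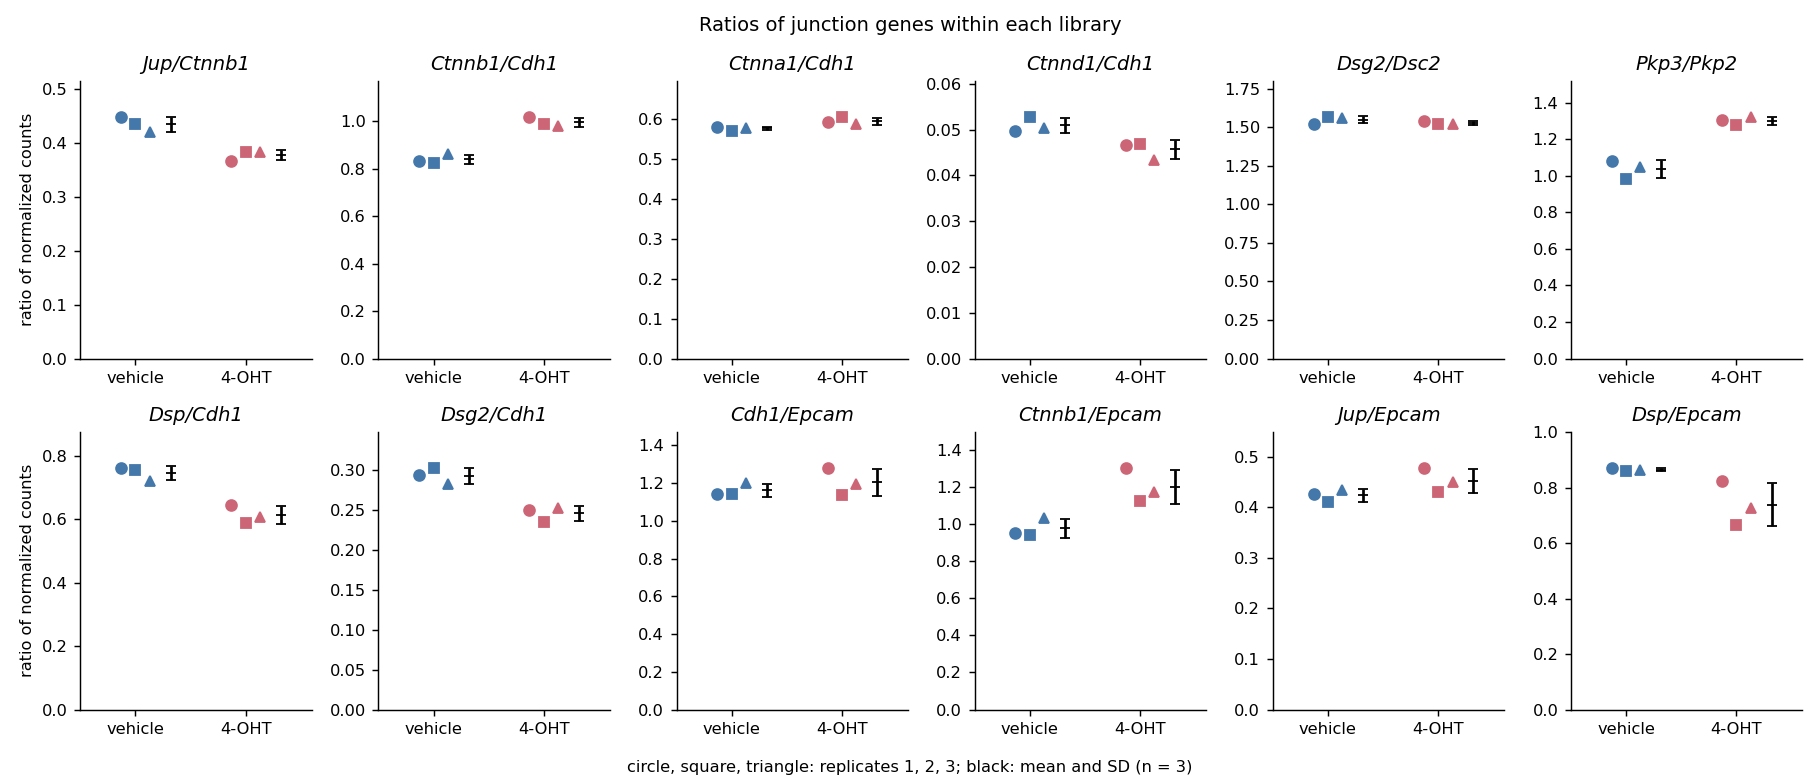
Ratios of normalized counts of 2 genes within each library (vertical axes, from 0) for the 3 vehicle and 3 4-OHT libraries, with black bars for the mean and SD. Ctnnb1/Cdh1, Pkp3/Pkp2 and Ctnnb1/Epcam are higher and Jup/Ctnnb1, Dsp/Cdh1 and Dsp/Epcam are lower in every 4-OHT library, and Dsg2/Dsc2, Cdh1/Epcam and Jup/Epcam overlap.

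Markers of other cell types were low. The sum of 7 fibroblast markers was 38.7 to 68.1 normalized counts with vehicle and 39.3 to 211.7 with 4-OHT, and that of 6 smooth muscle markers was 2.80 to 13.3 and 14.5 to 163.9. The fibroblast sum was raised in 4-OHT replicate 3 only, and that of 4-OHT replicate 2 (44.6) lay within the vehicle range. The 4-OHT replicates 2 (65.3) and 3 (163.9) held most of the smooth muscle reads. Both also held reads of immunoglobulin genes and of Defa genes of small-intestinal Paneth cells that were near 0 in the other 4 libraries. The sum of 5 endothelial markers was 1.21 to 8.40 and 5.17 to 14.5, and that of 6 immune markers was 180.4 to 225.6 and 150.8 to 181.4. The 5 plasma cell markers summed to 11187 to 11806 and 18105 to 18817, nearly all of it Sdc1, which epithelium also makes, with Mzb1 at 0 in all 6 libraries. The 8 Paneth cell and ileal markers summed to 625 to 880 and 1049 to 1851. In 4-OHT replicate 1, reads of fibroblast, immunoglobulin and Defa genes were few. Its sums of smooth muscle markers (14.5) and of Paneth cell and ileal markers (1049) were above every vehicle library. Most of the second sum was Ang4 (855 normalized counts), which was called higher over all 6 libraries (log2 fold change 0.90, limma adjusted p = 2.14e-07). Against the vehicle mean, 4-OHT replicate 1 was higher on the log2 scale by 0.30 for Cdh1, 0.58 for Ctnnb1, 0.34 for Ctnna1, 0.33 for Jup and 0.38 for Pkp3. The part of other cell types in the junction results was not tested. Without 4-OHT replicates 2 and 3 together, 5 of the 10 genes were called, and Ctnnd1 was not (log2 fold change 0.18, limma adjusted p = 0.0895).

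General markers of stratified (squamous) epithelium were also looked at, since several desmosomal genes mark skin-like differentiation. The 8 squamous markers with a row summed to 13860.0 to 17381 normalized counts with vehicle and 16897 to 20994 with 4-OHT, an overlap. Krt14 and Krt4 made up most of that sum. The single genes gave a different picture, with 4 of the 7 tested called higher and 3 (Krt13, Krt4 and Ivl) not passing. For comparison, 22.7% of all tested rows were called higher. Krt5, a keratin of basal cells, rose from 7.65 ± 1.39 to 51.1 ± 14.7 normalized counts (log2 fold change 2.56, limma adjusted p = 4.02e-06). Krt6a, a keratin of activated keratinocytes, rose from 780.0 ± 135 to 1700 ± 199 (1.13, limma adjusted p = 1.48e-08), and Lor, which encodes loricrin of the cornified envelope, from 505 ± 14.5 to 909.6 ± 99.5 (0.84, limma adjusted p = 3.60e-08). These 3 were higher in every 4-OHT library than in any vehicle library. Krt14 was called (0.17, limma adjusted p = 0.0303) with overlapping groups, and lost its call without vehicle replicate 1 (limma adjusted p = 0.147), vehicle replicate 2 (0.174) or 4-OHT replicate 1 (0.124). The part of these genes in the junction results was not tested. Trp63, which defines basal cells of stratified epithelium, had at most 1 read in a library.

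Among 19 further adherens junction genes, 14 could be tested, and 7 of them rose, 0 fell and 7 did not pass, with a median log2 fold change of 0.17. For this list and those that follow, the shares over all tested rows were 22.7% higher and 21.0% lower. Among rows with a mean of at least 1000, which many of the listed genes reached, they were 36.1% and 23.3%. Nectins are adhesion receptors that work beside E-cadherin, and 3 of the 4 largest rises were nectins, while Nectin3 (log2 fold change 0.03, limma adjusted p = 0.757) and their partner Afdn (0.03, limma adjusted p = 0.638) did not pass. Nectin4 rose from 587 ± 11.5 to 980.3 ± 11.8 normalized counts (log2 fold change 0.74, limma adjusted p = 1.38e-08). Nectin2 rose from 4879 to 6548 (0.42, limma adjusted p = 1.29e-07), and Nectin1 from 219.9 to 277 (0.34, limma adjusted p = 0.0123). The call of Nectin1 was lost without vehicle replicate 2 (0.29, limma adjusted p = 0.0644) and without 4-OHT replicates 2 and 3 together (limma adjusted p = 0.189). Lmo7, whose product binds the nectin partner afadin, rose from 12473 to 18122 (0.54, limma adjusted p = 8.48e-07). The 5 genes with too few reads to test included Cdh2, which encodes N-cadherin and had at most 2 reads in a library, and Cdh3, which encodes P-cadherin and had at most 9.

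Of 11 further desmosomal genes, 10 had a row and 5 could be tested, and all 5 rose, with a median log2 fold change of 0.28. The share of all tested rows that rose was 22.7%. Dsg3, a desmoglein best known from stratified epithelium, rose from 487 ± 40.4 to 634 ± 34.6 normalized counts (0.38, limma adjusted p = 5.43e-04). Perp, a membrane protein of the desmosome, rose from 4644 to 5782 (0.32, limma adjusted p = 7.77e-06). The plakin Evpl, which encodes envoplakin, rose by 0.28 (limma adjusted p = 0.00215), and Ppl, which encodes periplakin, by 0.19 (limma adjusted p = 0.00495), all as log2 fold changes. Among the core genes of the same junction, Dsg2, Dsc2 and Dsp did not pass. Pkp1 rose by 0.13 (limma adjusted p = 0.0178), and its call was lost without vehicle replicate 2, without 4-OHT replicate 1 or without 4-OHT replicate 3 (limma adjusted p-values 0.0759, 0.0627 and 0.0554) and with quantile normalization (0.06, limma adjusted p = 0.313). The other 5, Dsg1b, Dsg1c, Dsg4, Dsc1 and Dsc3, had at most 6 reads in any library.

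**Figure D4:**
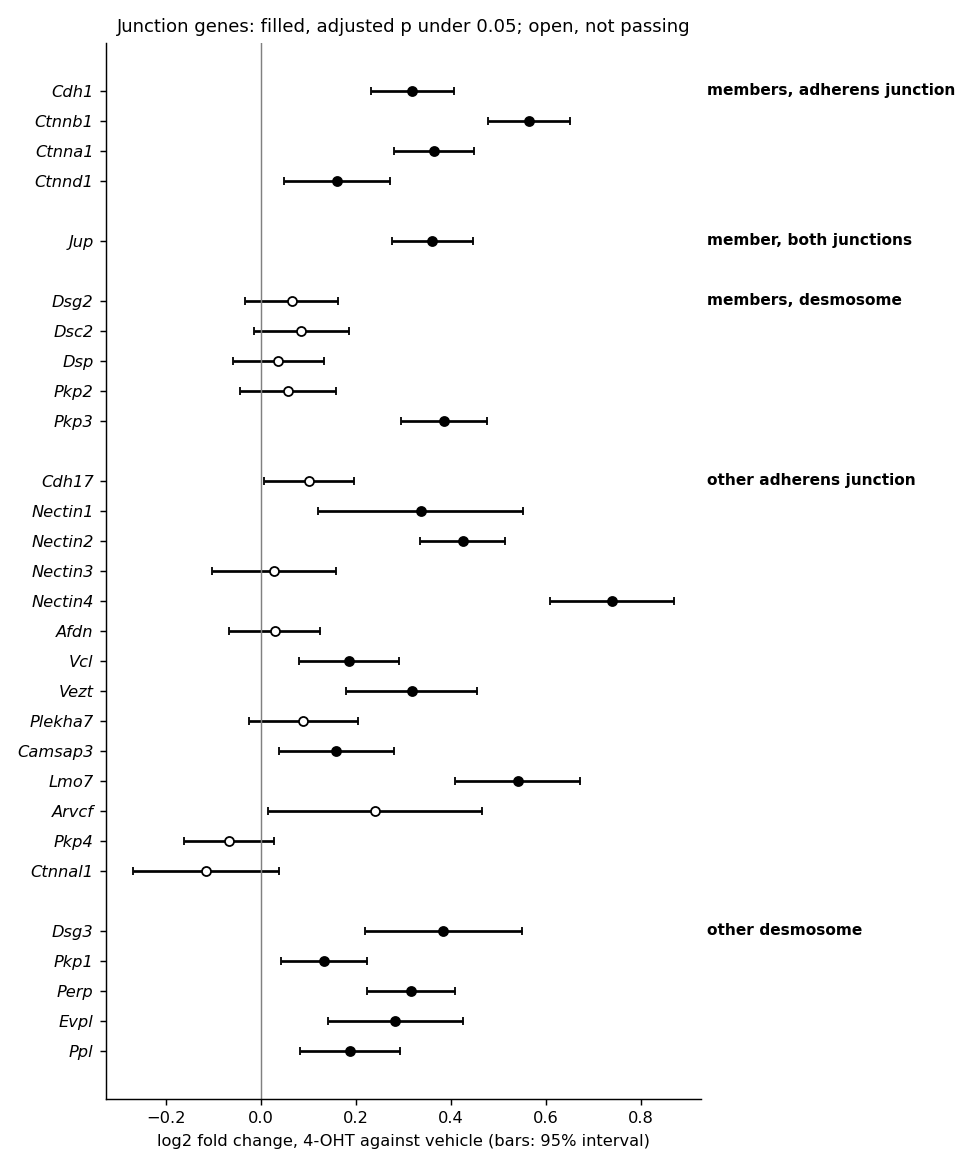
Log2 fold change of 4-OHT against vehicle (horizontal axis) with 95% intervals for the 10 junction genes and for the tested genes of the further adherens junction and desmosome lists. Filled points passed the test and open points did not, with Nectin4 at 0.74 and Ctnnb1 at 0.56 farthest to the right among the named genes.

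The filaments that the junctions hold were measured through 13 genes of keratins, actin-binding proteins and myosins, of which 9 rose, 0 fell and 4 did not pass. Over all tested rows 22.7% were higher and 21.0% were lower. All of these genes except Myh10 had a mean of at least 1000, and among such rows 36.1% were higher and 23.3% were lower. Krt7 rose from 40307 ± 2658 to 63513 ± 475 normalized counts (log2 fold change 0.66, limma adjusted p = 2.25e-09). Krt18 and Krt8, which pair to form the keratin filament of simple epithelium, rose by 0.56 and 0.54 (limma adjusted p = 1.00e-08 and 7.62e-08). Actn1, which encodes an α-actinin that crosslinks actin, rose by 0.53 (limma adjusted p = 3.01e-09). Krt20, a keratin of differentiated intestinal cells, did not pass (0.24, limma adjusted p = 0.0789), and neither did desmoplakin, which links keratins to the desmosome. With quantile normalization 5 of the 13 rose, 2 fell, and Krt8 had a log2 fold change of 0.28.

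The complex that marks free β-catenin for breakdown was measured through 7 genes, of which 0 rose, 3 fell and 4 did not pass. By comparison, 22.7% of all tested rows were higher and 21.0% were lower. Apc, the scaffold that is mutated in most colorectal tumors, fell from 2805 ± 37.4 to 2350.3 ± 199 normalized counts (log2 fold change -0.26, limma adjusted p = 8.65e-04), and without 4-OHT replicates 2 and 3 together its limma adjusted p was 0.055 (-0.17). Axin2, a scaffold that is also a transcriptional target of Wnt signalling, fell from 2965 to 2523 (-0.23, limma adjusted p = 4.06e-04). Gsk3b, the kinase that phosphorylates β-catenin, fell from 2363 to 2075 (-0.19, limma adjusted p = 0.00384). These libraries measure transcripts, not β-catenin protein.

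Regulators of E-cadherin were read from 2 lists. Of 7 repressors that can silence Cdh1, only Tcf4 had enough reads, and it did not pass (log2 fold change 0.07, limma adjusted p = 0.549). Snai1 had 1 to 12 reads in a library, Zeb2 had 4 to 13, and Snai2, Zeb1, Twist1 and Twist2 had at most 3, so that a difference in these was not detectable at this depth. Of 13 factors that maintain epithelial expression, 2 rose, 3 fell and 8 did not pass. With 22.7% of all tested rows higher and 21.0% lower, these counts do not set the list apart. Esrp2, a splicing factor of epithelial cells, rose by 0.30 (limma adjusted p = 3.60e-05), and Foxa1 by 0.20 (limma adjusted p = 0.00108), both as log2 fold changes. The intestinal factors Cdx2 (log2 fold change -0.26, limma adjusted p = 6.88e-05) and Elf3 (-0.26, limma adjusted p = 1.27e-04) fell although Cdh1 rose. Foxa2 fell by 0.55 on the log2 scale (limma adjusted p = 0.0142), with overlapping groups, and lost its call without vehicle replicate 2, 4-OHT replicate 1 or 4-OHT replicate 2 (limma adjusted p-values 0.0603, 0.065 and 0.0594).

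Genes typical of mesenchymal cells were read from a list of 5, of which 3 could be tested and rose, as did 22.7% of all tested rows. Fn1, which encodes the matrix protein fibronectin, rose from 6984 ± 333 to 19459 ± 1838 normalized counts (log2 fold change 1.47, limma adjusted p = 3.87e-13). Vim, which encodes vimentin, was low and rose from 98.5 ± 9.10 to 185 ± 56.1 (0.86, limma adjusted p = 3.64e-04), with the highest value in 4-OHT replicate 3, the library with the most fibroblast marker reads. Mmp14, a membrane-bound metalloproteinase, rose by 0.50 (limma adjusted p = 6.89e-08). Cdh11, a mesenchymal cadherin, had 1 to 9 reads and S100a4 at most 2. Cdh1 was higher in the same libraries as Fn1, Vim and Mmp14, although relative to Epcam its groups overlapped. Cdh2 and Cdh11, cadherins of other tissues, stayed near 0. A change between epithelial and mesenchymal states was not tested.

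Genes that remove or recycle E-cadherin at the membrane made up a list of 9, of which 2 rose, 3 fell and 4 did not pass. Since 22.7% of all tested rows were higher and 21.0% were lower, these counts do not set the list apart. Rab11a, a GTPase that returns cadherin to the surface, rose from 1657 ± 92.2 to 2235 ± 127 normalized counts (log2 fold change 0.43, limma adjusted p = 3.61e-06), and Hgs, which sorts internalized receptors, rose by 0.21 (limma adjusted p = 0.00168). Cbll1 (Hakai), a ubiquitin ligase of E-cadherin, fell from 303.4 to 238 (-0.35, limma adjusted p = 0.00731). The proteases Mmp7 (-0.28, limma adjusted p = 0.0066) and Adam17 (-0.15, limma adjusted p = 0.0335), which can cut adhesion receptors, fell as well. The list was less stable than the core genes: without vehicle replicate 2 there was 1 gene that fell, with adjusted p-values of 0.0606 for Mmp7 and 0.135 for Adam17 by limma, and without 4-OHT replicates 2 and 3 together there were 0 that fell and 1 that rose. Adam17 was also not called without vehicle replicate 3 (limma adjusted p = 0.0803), 4-OHT replicate 1 (0.0626) or 4-OHT replicate 2 (0.0768), nor with the replicate number as a block (0.0528).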

How the data were processed

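The deposited signal is a normalized count per gene, made by the authors from the reads on that gene and the size factor of the library. The submitters' processing notes name STAR, DESeq2 and the builds GRCm39 and mm39, without versions or roles, and the annotation and strand setting are not given in the sources used here. All values (100%) were whole multiples of 1 step per library within 0.1 reads, so whole reads were recovered, 15804709 to 26957612 per library.

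Groups were taken from the sample labels. Rows averaging 10 or more normalized counts (13210) were compared on log2(normalized count + 1) with limma-trend (limma 3.58.1, R 4.3.3) over all 6 libraries without pairing, with Benjamini-Hochberg adjustment over all tested rows and a threshold of 0.05. A fold change on this scale understates the change of low genes. The script was tested on simulated data. Ratios were compared by exact permutation tests. The genes and lists were chosen with earlier results of these data known. Named were all 10 junction genes, the targeted genes and, of each list, at most the 4 called genes with the largest fold change per direction, except Pkp1, Nectin3, Afdn, Krt20 and the cell type markers, which were chosen after their values were seen. Lengths and overlaps came from GENCODE vM21 (GRCm38), a different build, and promoters from RefSeq (GRCm38.p6).

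Alternatives were pseudocounts of 0.1 and 10, no filter, a filter at a mean of 50, quantile normalization, TMM factors, the replicate number as a block, each library left out, 4-OHT replicates 2 and 3 left out together, and count tests on the recovered reads (DESeq2 1.42.0 and edgeR 4.0.16). Ratios to Epcam were added after the data were seen. Libraries of the same replicate number did not deviate together (correlations of -0.00745, 0.0303 and -0.0202), so the number was not taken as a pairing.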

Additional observations from a re-analysis of the deposited data

How the results depend on the processing

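Over 16 alternatives, Cdh1 (log2 fold change 0.148 to 0.331), Ctnnb1 (0.407 to 0.577), Ctnna1 (0.232 to 0.377), Jup (0.241 to 0.375) and Pkp3 (0.327 to 0.394) stayed higher and past the threshold, as Prkci and Prkcz stayed lower, and Dsc2 and Pkp2 did not pass in any. Set against Epcam in the same library, a comparison added after the data were seen, the log2 difference was 0.0511 for Cdh1 (exact permutation p = 0.7), 0.0931 for Jup (p = 0.2) and 0.296 for Ctnnb1 (p = 0.1, the smallest possible), so that the rises of Cdh1 and Jup were not separable there. Ctnna1, Ctnnd1 and Pkp3 were not set against Epcam. Ctnnd1 ranged from 0.112 to 0.198 and was not past the threshold in 5 of the 16. The sign turned with quantile normalization for Dsg2 (-0.0423) and Dsp (-0.0777), neither of which passed, and for Dsp relative to Epcam (log2 difference -0.231), and the cause was not tested. With quantile normalization 1 further adherens junction gene was lower in place of 0, 5 cytoskeletal genes were higher in place of 9 and 2 were lower in place of 0, and 6 epithelial factors were lower in place of 3. Tjp1, named after its values were seen, made up the 1 cytoskeletal gene called lower with a pseudocount of 10, a mean of at least 50, TMM factors and edgeR, and with single libraries left out that count was 0 to 1. Genes of cadherin turnover that were lower numbered 1 to 3 with single libraries left out, and without 4-OHT replicates 2 and 3 there were 0 lower and 1 higher, where fewer samples were compared. With a block for replicate number, the counts of junction genes were the same, 1 cytoskeletal gene was lower, 2 turnover genes in place of 3 were lower (as with no filter), and over all rows 2938 were higher and 2699 lower; in the blocked sign-flip test of ratios the smallest possible p is 0.25. Rows called over the whole table numbered 3569 to 5780, of which 50.2% to 53.6% were higher. Depth limits the cadherin repressors, for which differences were not detectable at this depth, and the genes listed with under 10 reads. With no filter, 6 further desmosomal genes were higher in place of 5. That call therefore included a gene with at most 6 reads in a library.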
